A study of Oncorhynchus mykiss with 2 samples.

Results

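Among the transcripts measured in the immature testis of rainbow trout (Oncorhynchus mykiss), 211 were at least 16-fold higher in type A spermatogonia than in testicular somatic cells. They were selected on the measured values themselves: a transcript had to be detected in both populations, and its level in spermatogonia had to exceed that in somatic cells by at least 4 on the log2 scale. The arrays carried 55916 usable transcript probes, of which 37959 were detected in both populations. The enriched transcripts made up 0.556% of those 37959. Not all of the 37959 could qualify, since the rule leaves out any with a spermatogonial level under -1.17. Because the difference chose them, its size and direction are a description, and no test was run on them. Each population was measured on 1 array, which limits the precision and leaves the difference without a replicate check.

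One array measured type A spermatogonia of male trout, and the other measured testicular somatic cells of male trout. Both came from fish with the pvasa-GFP transgene, in which green fluorescent protein marks spermatogonia, and both were obtained by fluorescence-activated cell sorting. All fish therefore carried the transgene, and the promoter of vasa defined which cells counted as germ cells. The number and age of the fish, the number of sorts and the gate for somatic cells are not stated in the labels. Cy3-labelled copies of the RNA were hybridised to a custom Agilent array made from trout sequence contigs and single sequence reads.

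Spermatogonia of type A are the earliest male germ cells of the testis and are present before sperm production starts. Some of them act as stem cells, and in trout such cells can settle in the gonads of another fish after transplantation. They lie among somatic cells, which include Sertoli cells that nurse the germ cells, Leydig cells that make steroid hormones, and cells of the connective tissue and blood vessels. Transcripts high in germ cells and low in this surrounding are the usual candidates for germ cell markers. The arrays name their probes by numbers, contigs and reads. Of all probe and sequence names on the arrays, 0 matched the RefSeq gene table of trout (72772 genes). The 211 enriched transcripts therefore carry no gene name here, and neither do any others. The cell type labels could not be checked against vasa or any other marker for the same reason, and several probes may report the same gene.

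Levels are given as log2 of the background-corrected signal relative to the 75th percentile of the array, which was a signal of 769 on the spermatogonial array and 497 on the somatic one. A level of 0 thus marks a transcript brighter than most on its array, and signals of different probes are not amounts of RNA that can be set against each other. Of the 103747 spots, 79.6% stood well above background on the spermatogonial array and 79.3% on the somatic one. The 300 negative control spots had a median signal of 5.05 on the spermatogonial array and 3.83 on the somatic one, and the lowest level of a detected transcript was -5.29 in spermatogonia against -5.17 in somatic cells. The arrays shared 1 slide and took different places on it, so place and population cannot be told apart. In sorted populations measured in bulk, fewer cells with a transcript and less of it per cell cannot be told apart either.

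The enriched transcripts were bright in spermatogonia and dim, but measurable, in somatic cells. Their levels had a median of 0.74 in spermatogonia and of -3.57 in somatic cells, against medians of -1.10 and -1.15 over all transcripts detected in both populations. In spermatogonia 171 of the 211 lay above the 75th percentile of the array, and in somatic cells 3 did. Over all transcripts detected in both populations the third quartile also lay above it, at levels of 0.47 in spermatogonia and 0.51 in somatic cells. In signal the medians were 1288 for spermatogonia and 42.0 for somatic cells. The lowest signals of an enriched transcript were 474 in spermatogonia and 13.8 in somatic cells. Detection well above background was a condition of the rule. Together with the required difference, it allowed no enriched transcript a spermatogonial level under -1.17. Brightness in spermatogonia and dimness in somatic cells therefore follow in part from the rule. All 211 somatic cell signals exceeded the 95th percentile of the negative controls on that array (4.71). This follows from the required detection, since the lowest signal of any transcript detected in somatic cells was 13.8. The brightest negative control spot reached 94.4, above the third quartile of the somatic cell signals of the enriched transcripts (82.7). No spot of these transcripts was saturated.

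**Figure D1:**
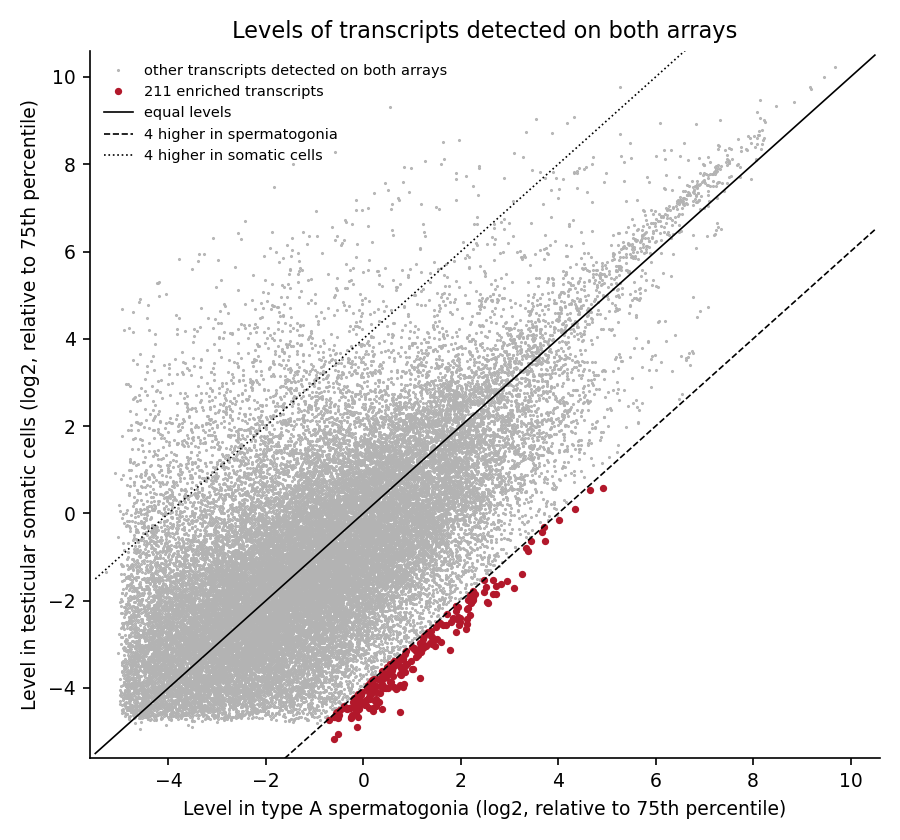
Levels of transcripts detected in both populations, with the level in type A spermatogonia on the x axis and that in testicular somatic cells on the y axis (log2, scaled to the 75th percentile per array). Each point is 1 probe on 1 array per population, red points are the 211 enriched transcripts, and the lines mark equal levels and differences of 4 in each direction. The red points form a narrow band below the dashed line, whereas points above the dotted line spread widely.

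The differences were packed closely above the threshold. The median difference was 4.25 (a 19.0-fold higher level in spermatogonia), the middle 50% ran from 4.10 to 4.42, and the largest was 5.30. Of the 211, 108 differed by 4 to 4.25, 65 by 4.25 to 4.5, 30 by 4.5 to 4.75, 7 by 4.75 to 5, and 1 by more. Levels spread far more than differences. Spermatogonial levels of the enriched transcripts spanned 5.62 and somatic cell levels 5.76, while the differences spanned 1.30. The lower end of that span is fixed by the threshold. For transcripts dim in spermatogonia, the upper end is limited by the required detection in somatic cells, where the lowest detected level was -5.17. That limit did not act on bright ones. All 7028 transcripts with a spermatogonial level of 1 or more were detected in somatic cells, and their largest difference was 4.94. The dimmer a transcript was in spermatogonia, the smaller the largest difference it could have.

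No gap separated the enriched transcripts from those just outside. The 3 with the smallest differences inside the threshold had 4.001, 4.004 and 4.005 (spermatogonial levels of 0.38, 0.55 and 2.49, somatic cell levels of -3.62, -3.45 and -1.52). The 3 closest outside it had differences of 3.997, 3.994 and 3.993, with spermatogonial levels of 3.97, 0.35 and 2.08 and somatic cell levels of -0.03, -3.64 and -1.91. With a threshold of 3 in place of 4 there were 1270 such transcripts, and with 5 there was 1.

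The transcript with the largest difference was a contig read by probe CUST_25214_PI425928308. It had a signal of 1290 in spermatogonia against 21.1 in somatic cells, levels of 0.75 and -4.56 and a 39.4-fold difference. Its 2 spots gave differences of 5.28 and 5.32. The contig behind probe CUST_6952_PI425928308 followed, with a signal of 1728 in spermatogonia against 36.5 in somatic cells. It was 30.6-fold higher in spermatogonia, and its 3 spots lay between 4.92 and 4.95. Both were of middling brightness among the enriched transcripts in spermatogonia, and both rested on a dim somatic signal. Their differences depended on how the signals were processed. With normexp correction (offset 50) of median spot signals and the same scaling, they were 3.42 for the first and 3.51 for the second. Both were under the threshold, and the contig at rank 5 then had the largest difference, 4.33. The first also lay within 1 of the lowest detected somatic level. Single reads held ranks 3 and 4, with differences of 4.90 (signals of 2624 in spermatogonia and 56.8 in somatic cells) and 4.86 (signals of 1008 and 22.4 in the same order). Each of these reads had 1 spot, so no repeat measurement stands behind them. Among the enriched transcripts with a spermatogonial level of 2 or more, the largest difference was that of the contig at rank 5, with a signal of 6530 in spermatogonia and 151 in somatic cells and spot differences of 4.73 and 4.87.

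The brightest group, with a spermatogonial level of 2 or more, held 38 of the 211 transcripts, 28 contigs and 10 single reads. Their signals had a median of 4483 in spermatogonia against 143 in somatic cells, and their median difference was 4.26. The brightest of all was a contig with a signal of 23296 in spermatogonia against 748 in somatic cells, a 20.1-fold difference, although 509 other transcripts were brighter still in spermatogonia. The contigs next in brightness had signals of 19464 in spermatogonia and 718 in somatic cells (17.5-fold), 15597 and 533 (18.9-fold), and 12450 and 447 (18.0-fold). The 3 brightest were the only enriched transcripts above the 75th percentile of the somatic array. These folds sit close to the threshold of 16, while the signals in somatic cells are far above background.

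The middle group, with a spermatogonial level from 0 to 2, held 133 transcripts, 88 contigs and 45 single reads. Their signals had a median of 1290 in spermatogonia against 42.1 in somatic cells, and the median difference was again 4.26. The dimmest group, under 0, held 40 transcripts, 23 contigs and 17 single reads, with a median signal of 662 in spermatogonia and 22.3 in somatic cells and a median difference of 4.17. Somatic cell levels in the dimmest group ran from -5.17 to -4.10, within about 1 of the lowest detected level on that array. A spermatogonial level under 0, together with the required difference and detection, confines them to about this range. Over all groups, 52 of the 211 transcripts lay within 1 of the lowest detected somatic level.

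**Figure D2:**
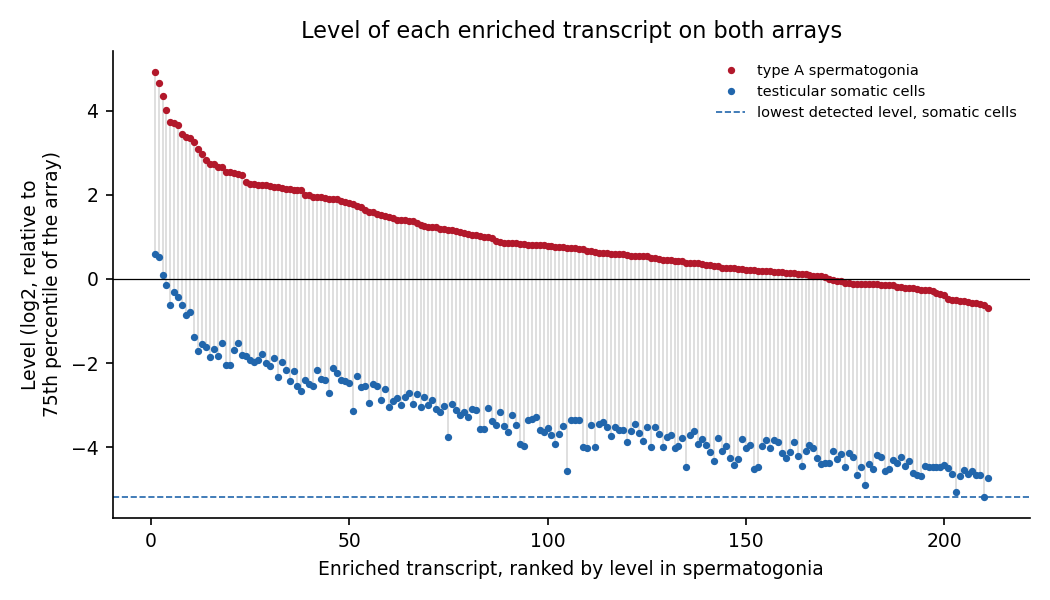
Level of each of the 211 enriched transcripts (log2, relative to the 75th percentile of the array) in type A spermatogonia (red) and testicular somatic cells (blue), ranked by the level in spermatogonia and joined by a grey line. The somatic cell levels follow the spermatogonial ones at a distance of 4.001 to 5.30. At the dim end the rule brings them close to the lowest detected level of the somatic array, -5.17 (dashed).

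Repeat spots on the same array gave a measure of technical error for the contigs, and the scanner software's own error, given below, is another. The 139 enriched contigs had 2, 3 or 12 spots each, whereas the 72 enriched single reads had 1. Taken spot by spot, the SD of the difference had a median of 0.105 over the 139 contigs, against 0.068 over all transcripts with repeat spots detected in both populations. It fell with brightness, with medians of 0.072 in the brightest group, 0.114 in the middle group and 0.153 in the dimmest. Every spot differed by at least 4 for 103 of the 139 contigs. The other 36 had at least 1 spot under 4, and the lowest single spot gave 3.18, so no spot of an enriched transcript fell under 3. The contig with 12 spots ranked 191, with a signal of 863 in spermatogonia and 33.9 in somatic cells. Its spots ranged from 3.78 to 4.29 around a mean of 4.04 (SD 0.173). For that contig the distance to the threshold was smaller than the spread between its spots.

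In 9 enriched contigs, 1 of 3 somatic cell spots was not well above background. All spots of all enriched transcripts were well above background in spermatogonia. The spot SD of these 9 ran from 0.159 to 1.27, and they made up 5 of the 6 contigs with an SD over 0.5. The contig at rank 8 had the highest spot SD, with spot differences from 3.98 to 6.24, and its mean of 4.77 rests on a somatic signal of 16.8. The scanner software's own error of the processed signals gave a median error of 0.245 for the difference. After subtraction of that error, 106 of the 211 transcripts still differed by at least 4, and the lowest value was 3.53.

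**Figure D3:**
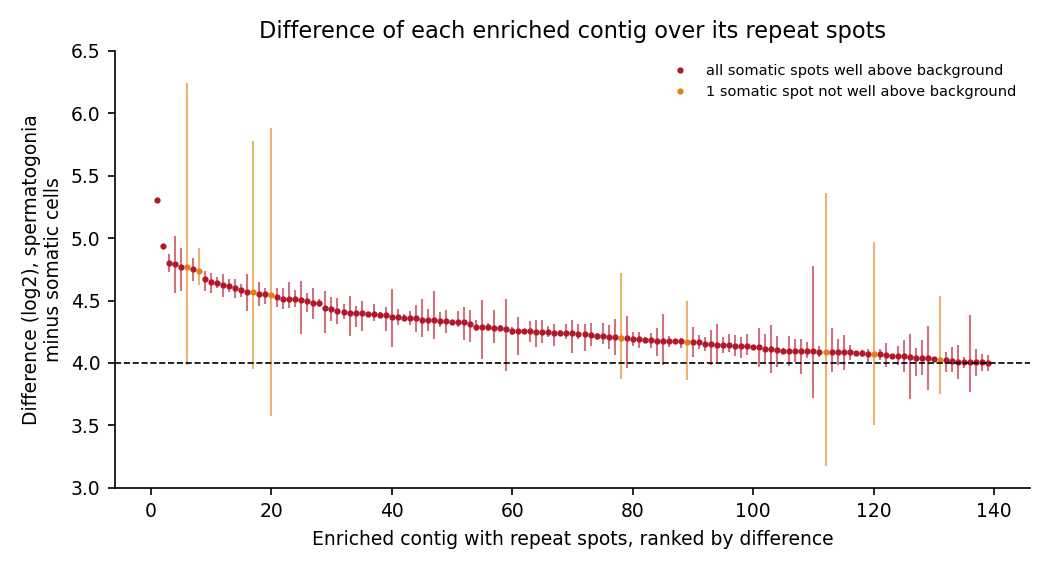
Difference between type A spermatogonia and testicular somatic cells (log2) for the 139 enriched contigs with repeat spots, ranked by the difference. Points are means over spots and lines run from the lowest to the highest spot; orange marks the 9 contigs with 1 somatic cell spot not well above background, which include the widest lines, and the dashed line is the threshold of 4.

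Contigs were more frequent among the enriched transcripts than among all detected in both populations. They made up 65.9% of the 211, against 55.3% of the 37959 detected in both populations. They were 56.4% of the transcripts at least 16-fold lower in spermatogonia (1271, or 3.35%). Expressed per kind, 0.662% of contigs and 0.424% of single reads detected in both populations were enriched. Contigs were also brighter, and brightness bears on who could qualify. Among the 16348 transcripts at or above the lowest spermatogonial level of an enriched one, 62.0% were contigs. Within that range the enriched shares were 1.37% of contigs and 1.16% of single reads. Enriched contigs had a median signal of 1350 in spermatogonia and 44.4 in somatic cells, and enriched single reads 1116 and 34.6. The median differences were 4.24 for the contigs and 4.31 for the single reads.

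Contigs whose names share a number form sets, and the labels do not say what that number means. Of the 139 enriched contigs, 98 (70.5%) were the only probe of their set, close to 67.2% of all contigs detected in both populations. Large sets were scarce. A single enriched contig (0.719%) came from a set of 5 or more, against 5.36% of all contigs detected in both populations. The other 41 lay in 31 sets, and 9 of those sets held 2 or more enriched contigs, 19 in all. The same count was not made for other contigs. Contigs of a set may report the same transcript. Each was still counted on its own in all counts, shares and medians here.

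In 1 set all 3 contigs were enriched. Their signals were 7347, 5986 and 1992 in spermatogonia and 190, 170.0 and 63.5 in somatic cells, in the same order, and their differences were 4.65, 4.51 and 4.34. Another set held the brightest enriched transcript (23296 in spermatogonia, 748 in somatic cells) and a contig with signals of 10216 in spermatogonia and 321 in somatic cells. The differences of these contigs were 4.33 and 4.36, and the remaining contig of that set differed by 3.66. A set of 2 contigs had signals of 3327 and 3493 in spermatogonia and 78.9 and 98.6 in somatic cells, with differences of 4.77 and 4.52. Only contigs past the threshold are counted as enriched, so closeness of their differences within a set is confined by the rule.

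The sets of enriched contigs held 30 contigs that did not qualify. Of these, 13 were detected in both populations, and 12 of the 13 were higher in spermatogonia, 7 of them by at least 3. Their median difference was 3.04, with a range from -0.74 to 3.99. Over all 37959 transcripts detected in both populations, the median difference was 0.03, and 1270 differed by at least 3. A further 12 of the 30 contigs were detected in spermatogonia alone, and for 6 of them the spermatogonial level exceeded the bound on the somatic side by at least 4. Over all 4621 transcripts detected in spermatogonia alone, 145 did so. Of the 30 contigs, 1 was detected in somatic cells alone, at a somatic cell level of -4.46, and 4 were detected in neither population. Among contigs detected in both populations, the widest split lay in a set of 5, where the enriched contig had a signal of 2200 in spermatogonia and 67.2 in somatic cells. The contigs of that set detected in both populations differed by 1.39, 0.74 and -0.74. No set of an enriched contig held a contig at least 4-fold lower in spermatogonia. Over all transcripts detected in both populations, the 5th percentile of the difference was -3.43 and the lower quartile was -1.03. The share of them at least 4-fold lower in spermatogonia was not counted. With 13 contigs detected in both populations to compare, the absence of such a contig is not read as agreement within sets.

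From a spermatogonial level of 0 upwards, the upper end of the differences did not grow with brightness in spermatogonia. Below 0 it did: the largest difference was 1.77 at levels from -4 to -3 and 4.77 at levels from -1 to 0. Among the 7028 transcripts with a spermatogonial level of 1 or more, 83 (1.18%) were enriched, the 99th percentile of the difference was 4.09 and the largest was 4.94. All 7028 were detected in somatic cells. At a level of 3 or more there were 1863 transcripts, of which 12 (0.644%) were enriched, the largest difference was 4.80 and again 0 were undetected in somatic cells. At a level of 5 or more there were 492 transcripts, none was enriched, and the largest difference was 3.84. Every transcript of these brightness classes was therefore detected in somatic cells too.

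The opposite direction looked different at the same brightness. Of all that were detected in both populations, 1271 (3.35%) were lower in spermatogonia by at least 16-fold. How this count compares with the 211 enriched transcripts depends on the scaling. Spike-in scaling and no scaling add 0.78 and 0.63 to each difference, which raises the number enriched to 927 and 764 and can only lower the count in the opposite direction. Counts of transcripts lower in spermatogonia were not repeated under other scaling, so the contrast in counts was not tested there. Among the 7622 with a somatic cell level of 1 or more, 1015 (13.3%) were at least 16-fold lower in spermatogonia, and the difference reached -9.63 among those detected in both. A further 182 of them were not detected in spermatogonia. At a somatic cell level of 3 or more, 515 of 2333 (22.1%) were at least 16-fold lower in spermatogonia, and 24 were not detected there. Below a level of 0 the largest differences were alike in both directions. There the lowest detected level sets how large a difference can be. Markers of either cell type could not be assigned, so the part of cells or RNA of the other population in these values was not tested.

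**Figure D4:**
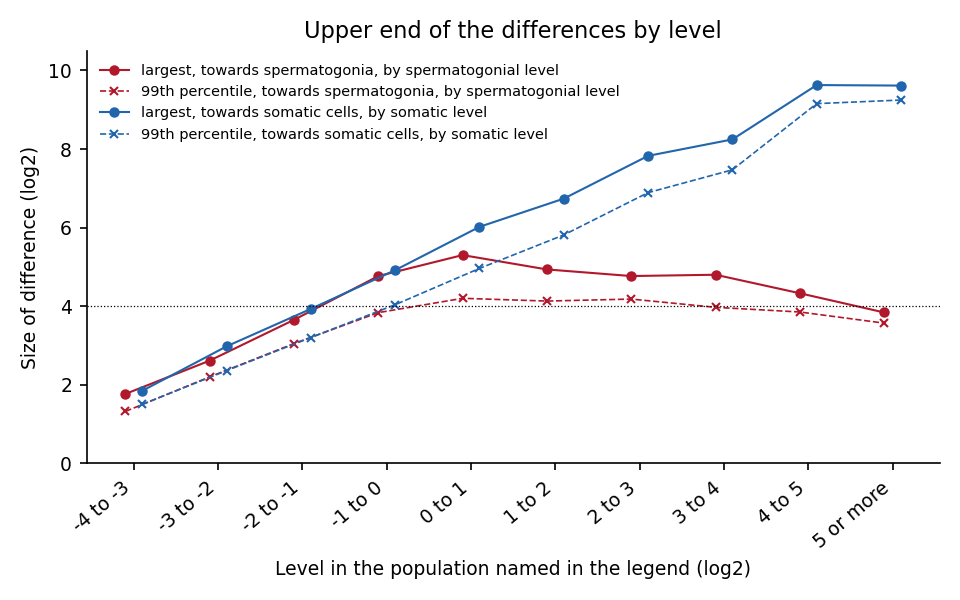
Largest difference (circles) and 99th percentile of the difference (crosses) among transcripts detected in both populations, by level, in log2. Red shows differences towards type A spermatogonia by spermatogonial level and blue differences towards testicular somatic cells by somatic cell level; the red line stays between 3.84 and 5.30 from a level of 0 upwards, and the blue line climbs to 9.63.

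Transcripts detected in spermatogonia alone could not qualify, since their somatic signal is only a bound. Of 4621 such transcripts, 145 (90 of them contigs) had a spermatogonial level at least 4 above the higher of their own somatic level and the lowest detected one. Their spermatogonial levels ran from -1.17 to 0.56 with a median of -0.75, against a lowest level of -0.70 among the enriched transcripts. The largest of these bounds was at least 42.2-fold. For comparison, 819 transcripts detected in somatic cells alone passed the same bound the other way, at somatic cell levels of up to 4.73. In the set of the contig at 15597 in spermatogonia and 533 in somatic cells, the other contig had signals of 576 and 8.23 in the same order and was detected in spermatogonia alone.

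How many transcripts qualified depended on how the signals were processed. The normexp alternative changed the spot signal and the background correction and added an offset, and the part of each was not tested. With normexp correction (offset 50) of median spot signals and the same scaling, 13 of the 211 still differed by at least 4, all with a spermatogonial level of 2 or more. All 211 stayed at least 2 higher in spermatogonia under it, with a median of 3.03. In the middle group the median difference was 3.06 and in the dimmest 2.44, while it was 3.88 in the brightest. By construction an offset pulls in differences most where a signal is dim. In the authors' deposited table all 211 differed by at least 4, with a median of 4.39. The same 13 transcripts passed under each of 13 alternatives other than a changed threshold. That list was set by normexp with 75th percentile scaling alone. Several other alternatives could remove no transcript, such as spike-in scaling, no scaling and a less strict detection flag. The 13 transcripts comprised 11 contigs and 2 single reads, and the dimmest had a signal of 4461 in spermatogonia and 121 in somatic cells. They included the brightest enriched transcript, the contig at rank 5, and 2 of the 3 contigs of the set in which all were enriched.

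**Figure D5:**
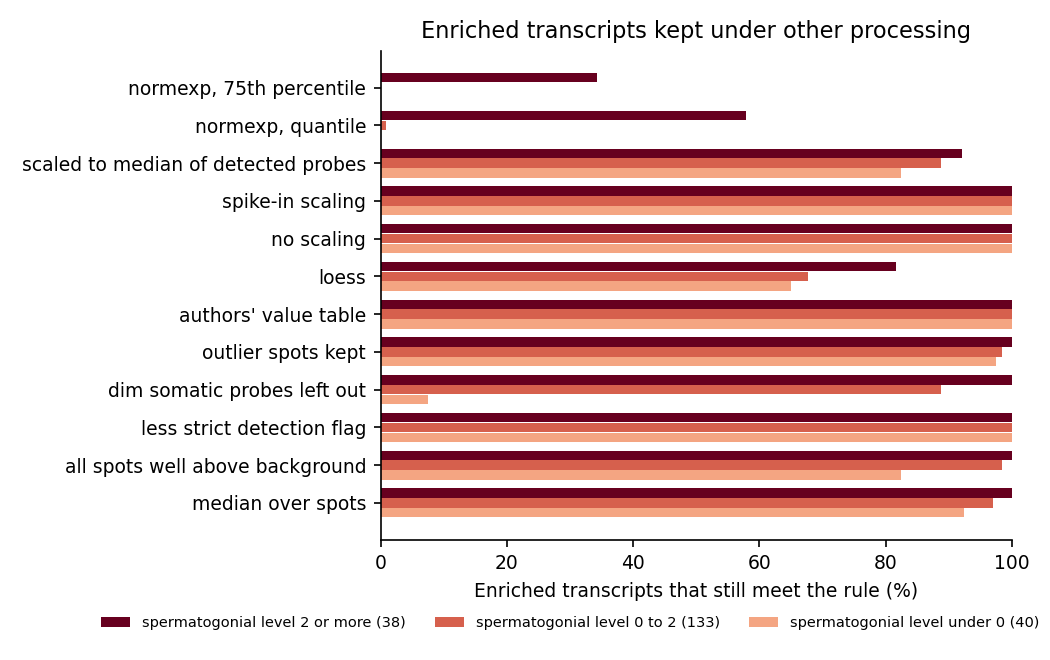
Percentage of the enriched transcripts that still met the rule under other processing, for spermatogonial levels of 2 or more (38 transcripts), 0 to 2 (133) and under 0 (40). With normexp and 75th percentile scaling 13, 0 and 0 transcripts of these groups remained; with spike-in scaling, no scaling or the authors' table all 211 did.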

How the data were processed

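Type A spermatogonia and testicular somatic cells were each measured on 1 array. The deposited scanner files give spot intensities on a linear scale, background-subtracted and detrended within each array by Agilent Feature Extraction 10.7.3.1 (array design 034067), per the file headers; nothing was normalized between arrays. RNA input was 25 ng, per the labels. The authors' deposited value table was taken as log2, since each column followed the log2 level of its own array (r of 0.9997 on each); its columns share a median of 6.97, and no source used here tells how it was made.

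Control spots and spots that carried a non-uniformity or population outlier mark on 1 or both arrays were left out. Levels are means over a probe's spots of log2 processed signal minus log2 of the array's 75th percentile. A probe was detected when over 50% of its spots were well above background. Signals are geometric means over spots. With 1 array per group no p-value was computed. The calculation of the difference was tested on simulated arrays in which every spot counted as detected and the set differences lay away from the threshold. Detection and calls near the threshold were not tested in this way. Gene names were sought in a RefSeq table (USDA_OmykA_1.1). Named probes are the 2 enriched ones with the largest differences among those with repeat spots. The enriched transcripts and the comparisons were chosen with earlier results of these data known. Alternatives covered background correction (limma 3.58.1, normexp on median spot signals), scaling, loess (span 0.7), detection, spot filters and thresholds. Python 3.11.15 and R 4.3.3 were used.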

Additional observations from a re-analysis of the deposited data

How the results depend on the processing

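Of the 15 alternatives, normexp with quantile scaling changed background correction and scaling together, and the authors' table differs in steps that are not known. Against 211 enriched transcripts, normexp gave 13 with 75th percentile and 36 with quantile scaling (13 and 23 of the 211), spike-in scaling (5 probes) 927, no scaling 764, 320 in the authors' table, 514 with the less strict detection flag, and thresholds of 3 and 5 gave 1270 and 1 (1 of the 211). Spike-in scaling and no scaling add 0.78 and 0.63 to each difference; loess and the authors' table shifted the median of all detected transcripts by -0.12 and 0.10. The median difference of the 211 was 3.03 and 3.22 with normexp (75th percentile, quantile), 5.03 with spike-in scaling, 4.88 without scaling, 4.10 with loess and 4.39 in the authors' table. The share of contigs was 84.6% and 77.8% with normexp and 100% of the 1 transcript at a threshold of 5. Sets with 2 or more enriched contigs numbered 2 and 4 with normexp, 38 with spike-in scaling, 33 without scaling, 17 in the authors' table, 16 with the less strict flag, and 53 and 0 at thresholds of 3 and 5, against 9. For transcripts bright in 1 population (level of 1 or more), a comparison chosen after seeing the data, the largest difference towards spermatogonia was 4.33 and 4.67 with normexp, 5.71 with spike-in scaling, 5.57 without scaling, 4.76 with loess and 5.09 in the authors' table. Towards somatic cells it was -9.13, -8.70, -8.85, -9.00, -9.79 and -9.20 in the same order. Beyond what the added constants, the thresholds and the offset do by construction, the causes were not tested. Signal over background limits the 52 transcripts within 1 of the lowest detected somatic level. Leaving out such dim probes removes these 52 by construction and kept 159 of the 211.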

Other observations

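The spots of the enriched transcripts lay over the whole array. Their 442 spots ran from row 1 to row 528 of 528 and from column 1 to column 199 of 199, with a median row of 250.0 and a median column of 100.5. Of these spots, 38 had a spot of another enriched transcript within 2 rows and 2 columns. The same count was not made for other spots, so it is not read as clustering or as its absence.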
